A study of Rattus norvegicus with 10 samples.

Results

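The Rtl1-antisense miRNAs are made from a maternally expressed transcript of the imprinted Dlk1-Dio3 locus that runs against the gene Rtl1. They were chosen by name. All 9 mature miRNAs asked for, miR-431 and both arms of miR-433, miR-127, miR-434 and miR-136, were found among the 765 rat miRNAs of the deposited table. The libraries hold small RNA of hippocampi from Wistar rats aged 10 weeks. The sham-operated group has 5 libraries (replicates 1 to 5), and so has the 2-VO group (replicates 3, 5, 6, 7 and 8), whose common carotid arteries were blocked on both sides, an operation used to model chronic cerebral hypoperfusion. No transgene or other agent is named for either group, and the interval before sampling (not given in the sources used here) is unknown. The labels do not tie each library to an animal of its own. P-values then cover only how these libraries vary, and that variation may be technical.

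In imprinted genes only the copy from a given parent is used. At the Dlk1-Dio3 locus the paternal chromosome expresses the protein genes Dlk1, Rtl1 and Dio3, and the maternal chromosome expresses long non-coding RNAs and a large number of miRNAs. Rtl1 is a gene derived from a retrotransposon that is needed in the placenta. Because the Rtl1-antisense miRNAs are read from the opposite strand of its coding sequence, they match the Rtl1 mRNA perfectly and can guide its cleavage. A miRNA hairpin gives a 5p and a 3p arm, and the seed, bases 2 to 8 of the mature strand, does most of the target pairing. Rtl1 mRNA was not measured here.

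RefSeq (build GRCr8) places all 5 hairpins on chromosome 6, plus strand, inside the span of Rtl1. In order they are miR-431 (chr6:134326449-134326562), miR-433 (chr6:134327358-134327450), miR-127 (chr6:134328454-134328550), miR-434 (chr6:134330402-134330482) and miR-136 (chr6:134331335-134331416). The gaps between neighbouring hairpins are 795, 1003, 1851 and 852 bases. RefSeq mature sequences were matched for 7 of the 9 members, with no match for miR-127-5p and miR-136-5p. They are shown 5′ to 3′ with the seed in capitals, because the seeds show whether the cluster forms a seed family.
miR-431: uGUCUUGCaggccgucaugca
miR-433-5p: uACGGUGAgccugucauuauuc
miR-433-3p: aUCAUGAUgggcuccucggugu
miR-127-3p: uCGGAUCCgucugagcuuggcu
miR-434-5p: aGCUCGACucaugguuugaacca
miR-434-3p: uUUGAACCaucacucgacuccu
miR-136-3p: cAUCAUCGucucaaaugagucu
The 7 seeds are all different. None of them occurs in another miRNA of the table, among the 690 rows with a RefSeq mature sequence. The 7 members with a matched sequence therefore share a locus but no seed.

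The hairpins of miR-127 and miR-434 are shown with their annotated mature strands in capitals, the first as the source of the most abundant member and the second as the hairpin with the most even use of its arms.
miR-127 hairpin: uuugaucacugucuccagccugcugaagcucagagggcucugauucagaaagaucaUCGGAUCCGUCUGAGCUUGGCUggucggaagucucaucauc
miR-434 hairpin: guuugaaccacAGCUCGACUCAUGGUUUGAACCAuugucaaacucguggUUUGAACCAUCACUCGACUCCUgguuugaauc
The arms of miR-434 share a run of 9 bases, uuugaacca. It opens miR-434-3p, whose whole seed it holds, and closes miR-434-5p. Any other pair of the 7 mature strands shares at most 5 bases in a row.

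Values are RPM, reads scaled to a common total. The divisor of each library was inferred from the values, with the smallest value taken as 10 reads. It came to 13032805 to 13850400 reads per library, at which the members had between 85 and 617463 reads each. The listed miRNAs made up 60.3% (2-VO replicate 3) to 78.0% (2-VO replicate 6) of that divisor, so the RPM of all miRNAs of a library move together with this share. For this reason log2 fold changes are also given on the scale of the listed miRNA reads. The 4 neuronal markers (miR-124-3p, miR-128-3p, miR-9a-5p and miR-138-5p) summed to 168016 to 204650 RPM in sham and 159228 to 205763 RPM in 2-VO libraries. Of the 7 epithelial markers, 1 was listed at 0 throughout, and their sum was highest in 2-VO replicate 3, at 79.9 RPM against at most 27.7 RPM elsewhere. The 3 choroid plexus markers summed to 548 to 949 RPM in sham and 387 to 562 RPM in 2-VO libraries, and the 3 red blood cell markers to 129.8 to 155 and 84.1 to 215 RPM. The part of these other cells in the results was not tested.

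The share of the 9 members in the RPM of all listed miRNAs was 6.74% ± 0.208 in the sham group (SD, n = 5). It was 6.69% ± 0.348 in the 2-VO group (SD, n = 5). Nearly all of it was miR-127-3p, a miRNA known to direct cleavage of Rtl1 and to repress Bcl6. It ranked 3 in the table and made up 85.1% to 87.3% of the members' RPM in each library. In sham replicates 1 to 5 it stood at 38118, 45109.7, 44820.3, 38399.6 and 41482 RPM. In 2-VO replicates 3, 5, 6, 7 and 8 it stood at 32731, 41332, 46729, 34490.1 and 44617 RPM. The 2-VO group held both the lowest and the highest value and the groups overlapped.

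Far below miR-127-3p followed both strands of miR-434, with means over the 10 libraries of 2311 RPM for the 3p and 1510 RPM for the 5p arm. Then came miR-136-3p (1190 RPM, range 894 to 1418), miR-127-5p (829 RPM, 655 to 982) and miR-433-3p (662 RPM, 518 to 827). Lower still were miR-136-5p (221 RPM, 173 to 314) and miR-431 (20.6 RPM, 16.5 to 26.6), a miRNA known to promote axon growth by targeting Kremen1. The lowest was miR-433-5p (7.46 RPM, 6.20 to 8.86). This order held in each of the 10 libraries for all 8 neighbouring steps. The ranges of neighbours over libraries overlapped for miR-434-5p and miR-136-3p, for miR-136-3p and miR-127-5p, and for miR-127-5p and miR-433-3p. Mature strands are 21 to 23 bases long where matched, so no correction for length was made.

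**Figure D1:**
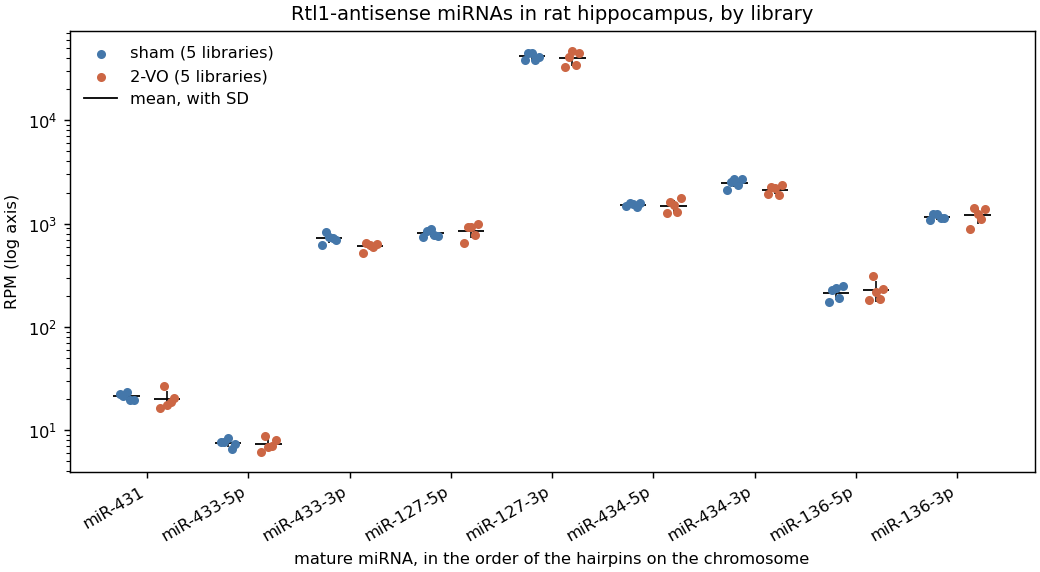
RPM of the 9 Rtl1-antisense miRNAs on a log axis, in the order of their hairpins, with a point per library (5 sham, 5 2-VO), the mean (bar) and the SD (line). miR-127-3p lies at 32731 to 46729 RPM, while miR-431 and miR-433-5p reach at most 26.6 and 8.86 RPM, and sham and 2-VO libraries overlap for each miRNA.

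The members varied little between libraries once scaled to the listed miRNA reads. The coefficient of variation over 10 libraries was 4.26% for miR-127-3p, 6.35% for miR-434-5p, 7.97% for miR-434-3p and 8.24% for miR-127-5p. It was 9.83% for miR-136-3p and 10.5% for miR-433-3p. It was largest for miR-431 (14.0%) and miR-136-5p (17.0%). For most members this was well above counting error, which alone would give 0.136% for miR-127-3p and 1.86% for miR-136-5p. For miR-433-5p, with 85 to 116 reads per library, the 9.62% found was no more than the 10.0% that counting error gives.

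The comparison of 2-VO with sham asks whether carotid occlusion was followed by a different level of these miRNAs. Of the 9 members, 0 passed (limma's moderated test over 474 miRNAs, smallest adjusted p = 0.76), as did 0% of all 474. At an unadjusted p under 0.05 there was 1 member, miR-433-3p, against 24 of the 474, or 5.06%. Voom gave the same counts for the members, 0 and 1. An exact permutation test per miRNA also gave 1 member, against 6.75% of the 474. Scaled to the reads of the listed miRNAs the unadjusted count was 2 members, miR-433-3p and miR-434-3p, against 7.17%. No member had groups that did not overlap, and 0.633% of the 474 did.

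miR-433-3p, the main strand of its hairpin, stood at 625, 827, 745, 718 and 695 RPM in sham replicates 1 to 5. In 2-VO replicates 3, 5, 6, 7 and 8 it stood at 518, 643, 618, 598 and 637 RPM. All 5 values of 2-VO lay below the sham mean, and 3 of them lay below every sham library. The means were 722 ± 73.8 and 603 ± 50.5 RPM (SD, n = 5). On the log2 scale the difference was -0.26 ± 0.10 (SE, limma adjusted p = 0.76, unadjusted p = 0.023). Set against the sum of the listed miRNAs in place of the divisor, the means were 1004 ± 87.0 and 872 ± 57.2 (SD, n = 5) and the log2 fold change was -0.20. The unadjusted p of the RPM values (limma) was 0.075 without sham replicate 2 and 0.054 without 2-VO replicate 3.

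miR-434-3p, the more abundant strand of miR-434, had the next smallest p. Its sham replicates 1 to 5 were at 2135, 2534, 2678, 2348 and 2714 RPM. Its 2-VO replicates 3, 5, 6, 7 and 8 were at 1954, 2264, 2229, 1874 and 2378 RPM. All 5 values of 2-VO lay below the sham mean of 2482 ± 242 RPM (SD, n = 5) but the groups overlapped. The log2 fold change was -0.21 ± 0.10 (SE, limma adjusted p = 0.76, unadjusted p = 0.053), or -0.16 scaled to the listed miRNA reads. With the replicate number as a block it was -0.36 (limma adjusted p = 0.997). Only replicates 3 and 5 of each group inform that fit, as both groups share no other number.

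The 95% interval of the log2 fold change held 0 for miR-434-3p (-0.43 to 0.0034) and for each of the other 7 members. For miR-127-3p the fold change was -0.07, with an interval of -0.30 to 0.17, and it was 0.0015 without 2-VO replicate 3. For miR-127-5p it was 0.07 (-0.18 to 0.32), and 0.01 to 0.16 on leaving out a library in turn. The strands of miR-136 were at 0.06 (-0.26 to 0.39) for the 5p and 0.04 (-0.23 to 0.30) for the 3p arm. Both were below 0 without 2-VO replicate 5, which had the highest value of either strand, 314 RPM of miR-136-5p and 1418 RPM of miR-136-3p. miR-431 was at -0.10 (-0.39 to 0.18), and at -0.21 to -0.04 on leaving out a library in turn. miR-434-5p was at -0.05 (-0.27 to 0.18) and miR-433-5p at -0.02 (-0.29 to 0.24), and both turned positive with array weights, with TMM factors and on the scale of the listed reads. On the scale of the listed reads the fold changes were -0.0090 for miR-127-3p, 0.13 for miR-127-5p, 0.12 for miR-136-5p, 0.10 for miR-136-3p and -0.05 for miR-431. With the replicate block, informed by replicates 3 and 5 of each group only, miR-127-3p was at -0.23 and miR-434-5p at -0.12. The intervals of the RPM values of these 7 members allow changes of up to 0.39 in either direction on the log2 scale.

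As a set, 6 of the 9 members were lower and 3 higher in 2-VO, with a median log2 fold change of -0.05. Among all 474 miRNAs 62.2% were lower and the median was -0.05. Scaled to the listed miRNA reads, 4 members were lower and 5 higher (median 0.01), against 49.4% lower among all 474 (median 0.00068). The lowest value of 7 of the 9 members was that of 2-VO replicate 3, the library with the smallest share of listed miRNA reads.

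**Figure D2:**
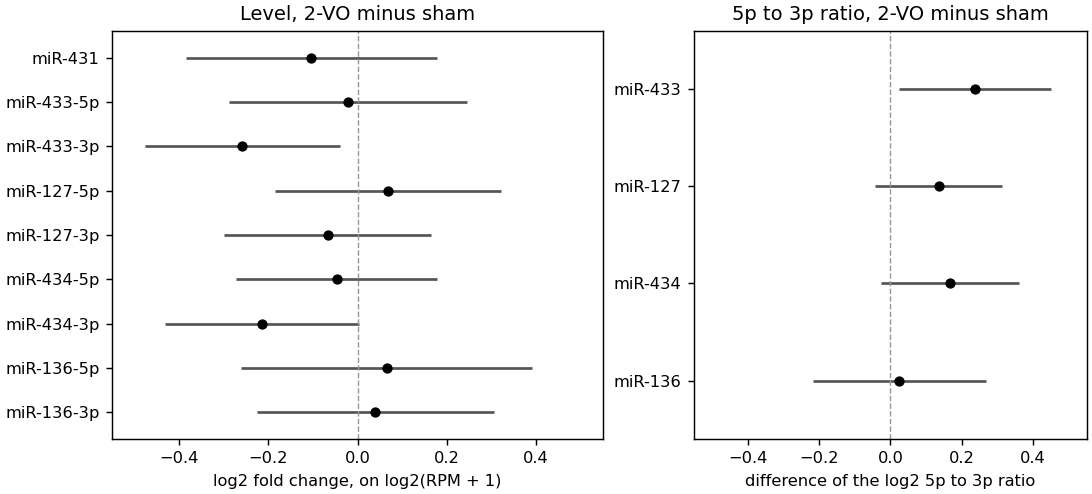
Left, log2 fold change of each member between 2-VO and sham on the log2(RPM + 1) scale, and right, difference of the log2 5p to 3p ratio of each hairpin with both arms listed, as points with 95% intervals over 5 and 5 libraries. The interval leaves out 0 for miR-433-3p among the levels and for miR-433 among the ratios, neither of which passed adjustment.

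The use of the arms was compared within each library. The divisor cancels from the 5p share, and it enters the log2 ratio only through the pseudocount of 1. It differed widely between the 4 hairpins with both arms listed. The 3p arm exceeded the 5p arm 88.6-fold for miR-433, 49.2-fold for miR-127, 5.42-fold for miR-136 and 1.53-fold for miR-434 (geometric mean over 10 libraries, with no pseudocount). The 3p arm was thus the main strand of each of the 4 hairpins. The 5p arm took 0.899% to 1.36% of the reads of miR-433, 1.80% to 2.20% of miR-127, 13.9% to 18.1% of miR-136 and 36.5% to 42.4% of miR-434, so the hairpins did not overlap in any library. Of the printed main strands, miR-127-3p and miR-434-3p begin with U, miR-433-3p with A and miR-136-3p with C.

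The 5p share was compared between the groups to ask whether the strands of a hairpin differed unequally after occlusion. In miR-434 the 5p arm held 40.9%, 38.5%, 36.5%, 38.3% and 36.8% in sham replicates 1 to 5. In 2-VO replicates 3, 5, 6, 7 and 8 it held 39.1%, 41.9%, 40.7%, 40.7% and 42.4%. All 2-VO libraries lay above the sham mean of 38.2% ± 1.77 (SD, n = 5), and sham replicate 1 reached into their range. The log2 5p to 3p ratio was higher by 0.17 ± 0.09 in 2-VO (SE, limma over 132 hairpins, adjusted p = 0.51, unadjusted p = 0.085).

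In miR-433 the 5p arm held 1.20%, 0.915%, 1.12%, 0.899% and 1.05% in sham replicates 1 to 5. In 2-VO replicates 3, 5, 6, 7 and 8 it held 1.18%, 1.36%, 1.11%, 1.15% and 1.26%. The 2-VO libraries again lay above the sham mean and overlapped with sham replicates 1 and 3. The ratio was higher by 0.24 ± 0.10 (SE, limma adjusted p = 0.38, unadjusted p = 0.032). Without sham replicate 2 or 4 or 2-VO replicate 5 or 8 the unadjusted p (limma) was 0.094, 0.089, 0.075 and 0.059 in turn. The ratio shares the values of miR-433-3p with the comparison of levels and rests on 85 to 116 reads of the 5p arm.

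In miR-127 the 5p share averaged 1.90% ± 0.0765 in the sham group and 2.09% ± 0.131 in the 2-VO group (SD, n = 5), with all 5 values of 2-VO above the sham mean. The difference of the log2 ratio was 0.14 ± 0.08 (SE, limma adjusted p = 0.56). In miR-136 the shares were 15.5% ± 1.52 and 15.8% ± 1.73, with 2 of 5 values of 2-VO above the sham mean. The difference was 0.03 ± 0.11 (SE, limma adjusted p = 0.93) and fell below 0 without sham replicate 1 or 4 or without 2-VO replicate 3 or 5. With the replicate block, informed by replicates 3 and 5 of each group only, it was 0.08.

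In all 4 hairpins the 3p arm stayed the main strand in both groups, and the mean log2 5p to 3p ratio was higher in 2-VO than in sham, with a median difference of 0.15, against 56.8% of the 132 hairpins tested and a median of 0.03. Of the 4 ratios 0 passed, as did 0% of the 132. At an unadjusted p under 0.05 there was 1 of the 4, and 11.4% of the 132. An exact two-sided permutation test per hairpin, added after the data were seen, gave 3 of the 4 at an unadjusted p under 0.05 (miR-433 and miR-434 at 0.032, miR-127 at 0.048), against 8.33% of the 132. After adjustment over the 132 hairpins 0 of the 4 passed (smallest adjusted p = 0.47, exact permutation test). No member ratio had groups that did not overlap, and 1.52% of the 132 did. The 4 ratios are not independent of each other or of the levels.

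**Figure D3:**
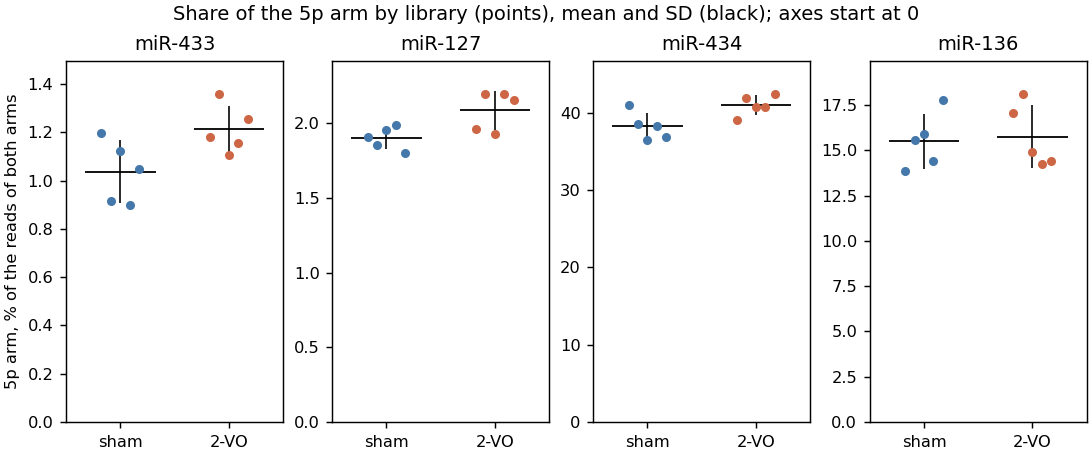
Share of the 5p arm in the reads of both arms for 4 hairpins, with a point per library, the mean (bar) and the SD (line) of 5 sham and 5 2-VO libraries, each axis starting at 0. The 2-VO means are higher for miR-433, miR-127 and miR-434 (1.21%, 2.09% and 41.0%) than the sham means (1.04%, 1.90% and 38.2%), with overlapping points.

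To ask whether miRNAs cut from a shared transcript varied together from library to library, the 36 pairs of members were correlated over the 10 libraries, on log2 values scaled to the listed miRNA reads. Of the 36 Pearson r, 31 were above 0, with a median of 0.36 and a range of -0.35 to 0.92. Among 54615 pairs of 331 other miRNAs of at least 10 RPM, the median r was 0.04 and 53.4% were above 0. Of these miRNAs, 51 come from elsewhere in the Dlk1-Dio3 locus. Among their 1275 pairs the median r was 0.21 and 68.0% were above 0, so positive r were not particular to the members. Left to the 8 members that reached 10 RPM on average, the median was 0.33. The median over the 36 pairs was 0.19 with TMM factors and 0.17 without 2-VO replicate 5. For those settings no r of other pairs was computed. Without the 2 libraries farthest from the median of the pair's first member, most of the 36 r lay below 0. The excess of positive r thus did not hold without those libraries. The r of miR-431 with miR-136-5p then went from 0.50 to -0.86, and that of miR-433-5p with miR-434-3p from 0.07 to -0.67. Others changed little or rose, as miR-127-3p with miR-136-3p, from 0.48 to 0.53. These values describe the libraries, which all pairs share.

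Pairs of members were tested by permutation (100000 resamples, two-sided, adjusted over the 36 pairs). Pairs of other miRNAs were not tested, so counts of pairs that passed have no share beside them on any scale. Among those other pairs the upper quartile of r was 0.32. Of the 36 pairs of members, 2 had a Pearson r that passed. The first was miR-127-5p with miR-136-3p, with r = 0.92 (permutation p = 0.00013, adjusted p = 0.0047) and Spearman's rho = 0.90 (permutation p = 0.0008, adjusted p = 0.029). Without the 2 libraries farthest from the median, 2-VO replicate 5 and sham replicate 5, r was still 0.92. On this scale their levels were lowest together in sham replicate 5 and 2-VO replicate 3 and highest together in 2-VO replicates 5 and 8. Without 2-VO replicate 5 alone, r was 0.90 and its adjusted p 0.062 (exact permutation test). These strands come from different hairpins of the cluster.

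The second pair was miR-431 with miR-433-5p, the members of lowest level and first in the cluster. It had r = 0.91 (permutation p = 0.0019, adjusted p = 0.033) and rho = 0.78 (permutation p = 0.01, adjusted p = 0.18). Without 2-VO replicates 5 and 6, which held the highest and the lowest value of both, r was 0.54, so the relation rests on those libraries. The call was also lost on leaving out any of sham replicates 1, 3 and 5 and 2-VO replicates 3, 5 and 6 alone (adjusted p of 0.059 to 0.16, exact permutation tests). Moreover, the coefficient of variation of miR-433-5p, 9.62%, was no more than the 10.0% that counting error gives.

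The arms of a hairpin were not the pairs of highest r. Between the 5p and 3p arm, r was 0.65 for miR-136, 0.49 for miR-127, 0.29 for miR-434 and 0.12 for miR-433, and 0 of the 4 passed. This order rested on few libraries. Without the 2 libraries farthest from the median of the 5p arm, r was -0.13, 0.41, 0.59 and -0.47 in turn. miR-433-3p and miR-434-3p, the members with the lowest fold changes, had r = 0.64 with each other (permutation p = 0.046, adjusted p = 0.35). Without sham replicate 2 and 2-VO replicate 6 it was 0.48. This pair was singled out for being lower in 2-VO, and that shared difference enters its r. The most abundant member, miR-127-3p, had r between -0.05 and 0.49 with the other 8. With values centred within each group 2 pairs passed and the median r was 0.48, with no r of other pairs computed. Within a single group of 5 libraries no r was computed. In RPM as deposited, where the share of listed reads moves all miRNAs of a library, 14 of the 36 pairs passed. The median r was 0.64, against 0.36 among the other 331 miRNAs and 0.53 among the 51 of these from the Dlk1-Dio3 locus.

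**Figure D4:**
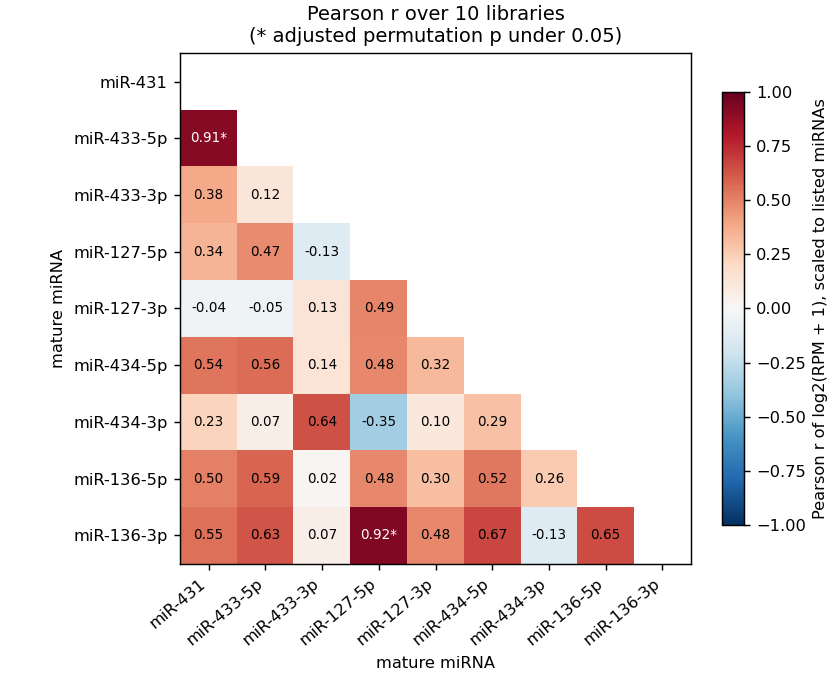
Pearson r between each pair of the 9 members over 10 libraries, on log2(RPM + 1) scaled to the listed miRNA reads, as a coloured lower triangle from -1 (blue) to 1 (red). The 2 starred pairs, miR-431 with miR-433-5p (0.91) and miR-127-5p with miR-136-3p (0.92), passed adjustment over 36 pairs, and the arms of a hairpin have r of 0.12 to 0.65.

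**Figure D5:**
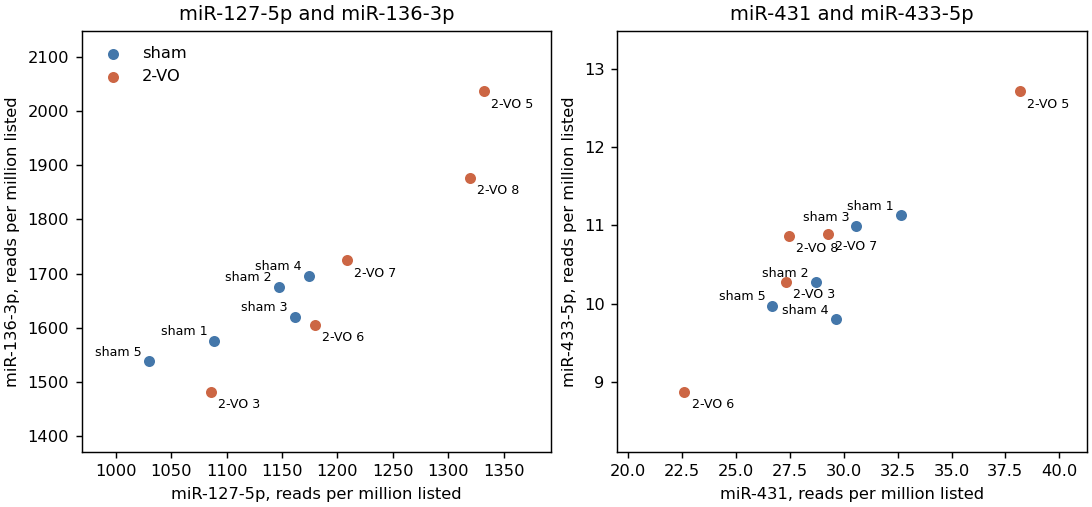
Levels of the members of both pairs that passed, as RPM scaled to the listed miRNA reads, on linear axes that do not start at 0, with a point per library. In the left panel the libraries spread along the whole range, and in the right panel 2-VO replicates 5 and 6 lie at the ends.

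The locus also holds miRNAs on either side of the Rtl1-antisense group, among them those of the large cluster that starts with miR-379. A list of these neighbours had 84 rows in the table, of which 69 were kept at a mean of at least 1 RPM. They summed to 19377 RPM on average, 40.8% of the sum of the 9 members, and the most abundant was miR-379-5p at 4011 RPM. In 2-VO 47 of the 69 were lower and 22 higher (median log2 fold change -0.09), where 62.2% of all 474 were lower (median -0.05). On the scale of the listed reads 39 were lower and 30 higher (median -0.04), where 49.4% of the 474 were lower (median 0.00068). Of the 69, 0 passed (limma, smallest adjusted p = 0.76). At an unadjusted p under 0.05 there were 3, all lower in 2-VO, where 4.22% of the 474 were lower at that level.

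The lower neighbours with the smallest p were miR-666-5p (8.20 ± 0.824 against 6.32 ± 0.367 RPM), miR-409b (635 ± 92.9 against 515 ± 99.6 RPM) and miR-485-5p (212 ± 24.1 against 175 ± 28.1 RPM), each sham first (SD, n = 5). The higher ones were miR-337-3p (1.32 ± 0.231 against 1.92 ± 0.647 RPM), miR-154-3p (2.77 ± 0.627 against 3.64 ± 1.16 RPM) and miR-329-5p (321 ± 56.8 against 368 ± 70.8 RPM). None of the 6 passed. Their fold changes ran from -0.33 to 0.31 on the log2 scale.

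Other miRNAs were ranked by the likeness of their levels to the members' mean profile, the mean of the 9 centred log2 values scaled to the listed miRNA reads. That profile was highest in 2-VO replicate 5 (0.20) and lowest in 2-VO replicate 6 (-0.14), while the 5 sham libraries lay between -0.04 and 0.03. Of 331 miRNAs of at least 10 RPM, the 5 with the highest Pearson r over 10 libraries were miR-154-5p (0.96), miR-380-3p (0.96), miR-376b-3p (0.93), miR-487b-3p (0.90) and miR-29c-3p (0.88). In RPM as deposited their r was between 0.85 and 0.96. The first 4 are neighbours in the Dlk1-Dio3 locus, whose neighbours made up 51 of the 331, or 15.4%. miR-29c-3p is from another locus. None of these r was computed again without 2-VO replicates 5 and 6, the ends of the profile. How far they rest on those libraries was not tested. Between members and neighbours of at least 10 RPM the median r was 0.24 over 408 pairs.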

How the data were processed

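The authors deposited a single table of RPM values for 765 rat miRNAs in 10 libraries. Per the submitters' processing notes bcl2fastq, BWA and the rat build rn6 were used, with the annotation, multiple matches and divisor not given in the sources used here. RNA was ligated to adapters and amplified by PCR, per the labels' protocols, so levels of different miRNAs also depend on ligation. The divisor of a library was sought with its smallest value above 0 taken as 10 reads. At a single divisor per library each value above 0 was then a whole number of reads within 0.01. A listed 0 would then mean fewer than 10 reads. Read counts and counting errors rest on this inference. No member was at 0 and none had a row that repeats its values. Within each group, counts of any pair of libraries differed beyond sampling noise (lowest chi-square per degree of freedom 96.4), so none was merged.

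The 474 miRNAs that averaged 1 RPM or more were compared on log2(RPM + 1). The test was that of limma 3.58.1 (R 4.3.3), two-sided and moderated, with trend and without covariates. Benjamini-Hochberg adjustment was used with a threshold of 0.05. The 5p to 3p ratio of 132 hairpins was tested likewise. Fold changes on this scale understate those of low miRNAs. Members were taken by name, neighbours by the smallest p (3 in each direction), and like miRNAs by the 5 highest r. The members and lists were chosen with earlier results of these data known. Sequences are from RefSeq (GRCr8), which is not the build of the files.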

Additional observations from a re-analysis of the deposited data

How the results depend on the processing

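Over 21 settings of the level comparison and 16 of the arm ratios, 0 members passed in each, with the smallest adjusted p among members between 0.447 and 0.997 for levels and between 0.27 and 0.90 for ratios. miR-433-5p and miR-434-5p turned positive with array weights (0.022 and 0.0098), TMM factors (0.031 and 0.013) and the sum of listed reads as divisor (0.030 and 0.011). For the numbers 3 and 5, which both groups share, the correlation of deviations was -0.058 and -0.18. With 2 such values it cannot be told whether equal numbers mark a pairing. With the replicate block, informed by these 2 numbers only, miR-127-5p (-0.082), miR-136-5p (-0.0041) and miR-136-3p (-0.081) turned negative, miR-127-3p moved to -0.23, miR-434-5p to -0.12, miR-433-5p to -0.079, miR-434-3p to -0.36 and miR-431 to -0.039, and 8 of the 474 miRNAs passed, no member among them. Leaving out a library in turn gave log2 fold changes of -0.13 to 0.0015 for miR-127-3p, -0.058 to 0.13 for miR-136-5p, -0.021 to 0.14 for miR-136-3p, -0.082 to 0.032 for miR-433-5p and -0.11 to 0.012 for miR-434-5p, and a difference of -0.037 to 0.086 for the ratio of miR-136. Those of miR-433-3p (-0.31 to -0.20), miR-434-3p (-0.27 to -0.17) and miR-431 (-0.21 to -0.043) stayed below 0, and those of miR-127-5p (0.013 to 0.16) above it. The number of pairs of members that passed was 14 in RPM as deposited and 0 to 2 on leaving out a library, with 0 without 2-VO replicate 5. The planned count model was not run, and voom on the whole reads behind the RPM values gave 0 members. miR-433-5p is left out by a filter at 10 RPM. In 28 groups of 5 values, 0 had a library whose gap to the next exceeded 0.71 of the range. That check did not cover levels scaled to the listed miRNA reads, the scale of the correlations. There 2-VO replicate 5 stood apart for miR-136-5p, at 451 against at most 316 in the other 2-VO libraries.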
